A study of Mus musculus with 4 samples.

Results

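The glucagon receptor and the protein kinase A (PKA) genes it signals through were described in mouse primary hepatocytes with and without Prom1. The set held 10 genes, chosen by name from the 22079 identifiers of the deposited expression table: the receptor gene Gcgr, the Gs alpha subunit gene Gnas, the PKA catalytic subunit genes Prkaca and Prkacb, the regulatory subunit genes Prkar1a, Prkar2a and Prkar2b, the anchoring protein gene Akap1, and the transcription factor genes Creb1 and Creb3l3. The libraries came from 8-week-old C57BL/6 males, 2 wild type (WT 1 and WT 2) and 2 of the genotype Prom1-/- (KO 1 and KO 2), given as biological replicates. In both genotypes the liver cells attached for 4 hours in 199 medium with 10% serum, 23 mM HEPES and 10 nM dexamethasone, a synthetic glucocorticoid, and then stood in medium without serum overnight. No label names added glucagon or a cAMP agent, so the values describe cells without a stated hormone stimulus. The labels do not say how the Prom1 allele was made or whether a replicate pooled animals.

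Glucagon is the fasting hormone of the pancreas. Its receptor on hepatocytes acts through Gs, which makes adenylyl cyclase produce cyclic AMP. Cyclic AMP binds the regulatory subunits of PKA and releases the catalytic subunits, and anchoring proteins hold the kinase at membranes and organelles. PKA phosphorylates metabolic enzymes and the transcription factor CREB1, which with its CRTC coactivators drives genes of glucose production such as Pck1. The study is known for asking how Prom1 and radixin, a membrane-cytoskeleton linker that can bind PKA, bear on this pathway.

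Values are FPKM, fragment counts scaled for transcript length and library size, so levels of different genes can be set side by side. Differences between genotypes are KO minus WT on the log2(FPKM + 1) scale. Prom1 itself was at 0.572 and 1.22 FPKM in WT 1 and WT 2, listed at 0 in KO 1 and at 0.0458 FPKM in KO 2. The hepatocyte markers other than Alb summed to 14240 to 16780 FPKM per library, while Alb was listed at 0 in WT 2 alone. Apoa1 and Trf made up most of that sum, so it says little about the others. Of the 12 markers, Alb included, 8 were lower in KO and 4 higher. Both KO libraries lay below WT for 3 of 12 and above for 1, against 19.8% and 18.3% of all tested genes. Hnf4a (-0.58) and Tat (-0.30), which also stand in pathway lists used below, were among the lower ones. Markers of sinusoidal endothelial cells summed to 49.0 to 93.8 FPKM (12 genes, none at 0 in all libraries) and those of stellate cells and fibroblasts to 15.3 to 31.1 FPKM (13 genes, likewise), with the maximum in KO 1 and the minimum in KO 2. The 12 Kupffer cell and macrophage markers, likewise, summed to 384 and 380 FPKM in WT 1 and WT 2 and to 436 and 504 FPKM in KO 1 and KO 2. Without Cd68, their most abundant gene, those sums were 26.8, 29.4, 43.0 and 38.5 FPKM. These markers did not move together. Of 10 tested, 5 had both KO libraries above WT and 1 (C1qa) had both below, against 18.3% and 19.8% of all tested genes. Marco (0.87), Lyz2 (0.85) and Cd5l (0.70) differed most, while the 3 lower genes were C1qa (-0.14), C1qb (-0.04) and C1qc (-0.15). The stellate and fibroblast markers did not move together either, and Dcn was the largest part of their sum, at 17.5 FPKM in KO 1. Of 4 tested, 1 had both KO libraries above WT (Tagln, 0.96) and 1 both below (Reln, -0.62). Over all tested genes 18.3% and 19.8% did. Cholangiocyte markers summed to 28.3 to 41.6 FPKM, with Sctr, 1 of the 8 genes, at 0 throughout.

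Of the 10 pathway genes, 9 reached the mean of 1 FPKM required for testing, and Prkar2b did not. By limma, 0 of the 9 had an adjusted p under 0.05, where 0% of all 10407 tested genes did. At an unadjusted p under 0.05 the count was 1 of 9, Creb3l3, against 7.29% of all genes tested. Creb3l3, Prkacb and Prkar2a, 3 of 9, had each KO value under each WT value, against 19.8% of all genes. For Gnas, 1 of 9, both lay above, against 18.3% of all genes. The median difference of the 9 genes was 0.005, and that of all tested genes was -0.001. For 7 of the 9 the difference was smaller than 0.2 in either direction, as it was for 72.3% of all genes. In bulk libraries such as these, fewer cells of a type and less RNA per cell cannot be told apart.

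**Figure D1:**
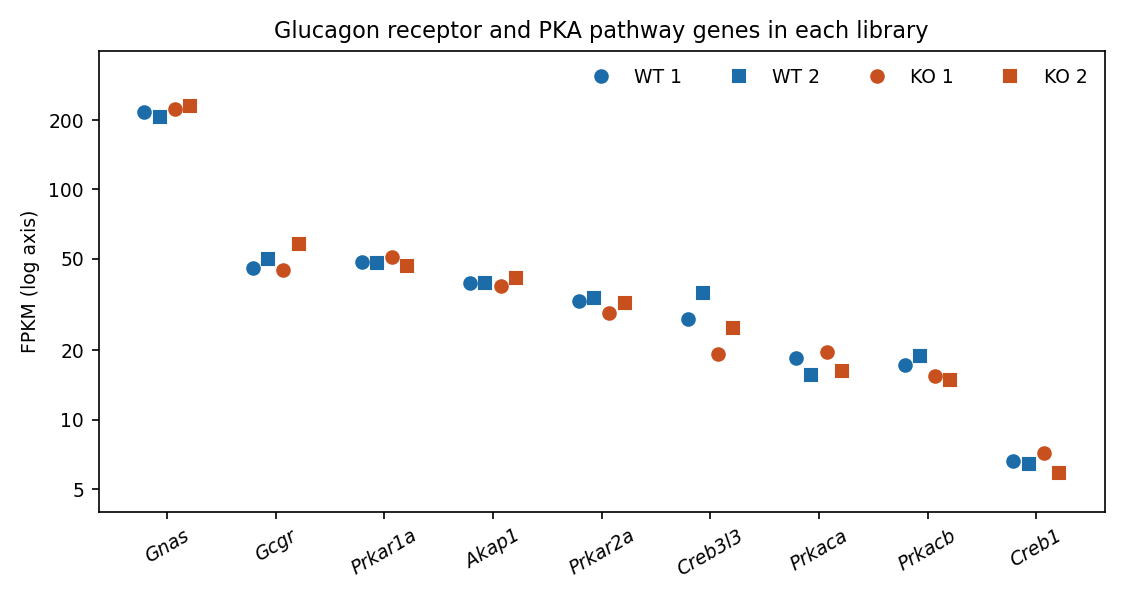
FPKM of 9 pathway genes (log axis) in WT 1, WT 2, KO 1 and KO 2, ordered by mean level. The libraries of the genotypes are intermixed for Gcgr, Prkar1a, Akap1, Prkaca and Creb1, while for Creb3l3 each KO point lies under each WT point; Prkar2b, at or near 0 throughout, is not drawn.

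Gnas was by far the most abundant of the 10, with a mean of 219 FPKM over the 4 libraries, above 97.0% of tested genes. Gcgr followed at 49.4 FPKM and Prkar1a at 48.5 FPKM, and these neighbours could not be ordered, because each was the higher one in 2 of 4 libraries. Akap1 (39.5 FPKM) lay below Prkar1a in every library. Prkar2a (32.0 FPKM), Creb3l3 (26.8 FPKM), Prkaca (17.5 FPKM) and Prkacb (16.7 FPKM) came next, and the ranges of each pair of neighbours in that run overlapped. Creb1 (6.55 FPKM) was below all of these in every library. Prkar2b was at the bottom, with a mean of 0.0110 FPKM.

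Gcgr encodes the glucagon receptor, a Gs-coupled receptor of hepatocytes (ENSMUSG00000025127, plus strand, chr11:120530699-120538986 in mm10). It was at 45.4 (WT 1), 49.9 (WT 2), 44.5 (KO 1) and 57.8 FPKM (KO 2). The lowest and the highest value were both in KO libraries, so the genotypes overlapped. The difference was 0.09 (SE 0.15), with a 95% limma interval from -0.27 to 0.45, and its sign turned to -0.096 without KO 2. The tested genes whose profile over the 4 libraries lay closest to that of Gcgr included Sh3glb1 and Mmp24, at Euclidean distances of 0.0169 and 0.0224 on the centred log2(FPKM + 1) scale. As many as 112 genes lay within 0.1, so 4 libraries hardly set this likeness apart.

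Receptors that share the Gs route were scarce. Of 18 listed Gs-coupled receptor genes, Gcgr included, 3 were tested. Adora2b, an adenosine receptor, was at 3.13 and 3.25 FPKM (WT) against 2.61 and 2.25 FPKM (KO) (-0.29, SE 0.16). Its KO values were both under its WT values, at a small fraction of the level of Gcgr. Glp1r, Gipr, Sctr and Gpbar1, receptors of gut hormones and bile acids, were listed at 0 in all 4 libraries.

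Other listed genes damp or escort such receptors. Of 8 tested, 3 had both KO libraries above WT (Grk2, Grk6 and Arrb1) and 2 had both below (Rgs2 and Rgs16), where 18.3% and 19.8% of all tested genes did. The higher ones differed little: Grk2 by 0.19 (SE 0.12), Grk6 by 0.20 (SE 0.10) and Arrb1 by 0.04 (SE 0.19). Rgs2, a GTPase activator that also restrains cyclase signalling, was at 1.52 and 2.33 FPKM in WT against 0.611 and 0.735 FPKM in KO (-0.79, SE 0.22). Rgs16, another GTPase activator, was at 3.34 and 4.93 against 2.04 and 2.16 FPKM (-0.71, SE 0.20). Ramp2, which codes for a receptor activity-modifying protein, varied most within genotypes: 2.25 and 1.36 FPKM (WT) against 1.38 and 0.270 FPKM (KO) (-0.67, SE 0.35).

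Gnas encodes the stimulatory alpha subunit that couples the receptor to adenylyl cyclase (ENSMUSG00000027523, plus strand, chr2:174284320-174346744). It was at 216 (WT 1), 207 (WT 2), 224 (KO 1) and 230 FPKM (KO 2). The KO libraries were the higher 2, but by a small margin: the difference was 0.10 (SE 0.10), with an interval from -0.15 to 0.35. Its locus holds 24 annotated transcripts, some of them imprinted and from other promoters, and the antisense gene Nespas, so a gene-level value does not isolate the Gs transcript. Among 12 other tested G protein subunit and chaperone genes, 10 differed by less than 0.2, as did 72.3% of all tested genes. The exceptions were the gamma subunit genes Gng11 (-0.28, SE 0.17) and Gng10 (0.28, SE 0.17), and next came Ric8b, a chaperone of stimulatory alpha subunits (0.13, SE 0.12).

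Adenylyl cyclases make cyclic AMP, and 3 of the cyclase genes proper were tested, beside the cyclase-associated protein gene Cap1. Adcy6 was at 7.17 and 7.22 FPKM (WT) against 9.47 and 9.06 FPKM (KO). Its KO libraries were 1.29-fold the WT mean, a difference of 0.32 (SE 0.11) with an unadjusted limma p of 0.0294 and an adjusted p of 0.632. Adcy1 went the other way, at 2.87 and 5.30 FPKM (WT) against 1.63 and 1.497 FPKM (KO), a difference of -0.95 (SE 0.26, unadjusted limma p 0.0104, adjusted p 0.562). Without WT 2, its highest library, the difference of Adcy1 was -0.60. Adcy9 was at 4.67 and 4.26 FPKM (WT) against 4.93 and 5.21 FPKM (KO) (0.15, SE 0.13). Neither Adcy1 nor Adcy6 passed over all genes tested.

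Phosphodiesterases break cyclic AMP down. Of 16 listed genes 7 were tested, with 3 higher, 4 lower and a median difference of -0.05. Pde3b, an insulin-activated form, was the most abundant at 9.75 and 8.44 FPKM (WT) against 9.48 and 12.3 FPKM (KO) (0.23, SE 0.16), with overlapping libraries. Pde4b, itself a cyclic AMP-induced gene, was at 4.58 and 5.09 FPKM (WT) against 4.07 and 4.03 FPKM (KO) (-0.21, SE 0.14). Pde2a differed by -0.15 (SE 0.27), with the highest and the lowest value both in KO libraries.

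Prkaca and Prkacb encode the alpha and beta catalytic subunits of PKA (chr8:83972993-83996443, plus strand, and chr3:146729574-146812990, minus strand). Prkaca was at 18.6 (WT 1), 15.7 (WT 2), 19.6 (KO 1) and 16.3 FPKM (KO 2). The genotypes alternated, and the difference was 0.06 (SE 0.14, interval -0.29 to 0.41). Prkacb was at 17.4 and 18.9 FPKM (WT) against 15.6 and 14.9 FPKM (KO). Each KO value was under each WT value, at 0.839 of the WT mean, and the difference was -0.24 (SE 0.11, interval -0.50 to 0.02). Its limma p was 0.0665 unadjusted and 0.689 adjusted over all tested genes, and the sign was the same without any 1 of the 4 libraries (-0.18 to -0.30).

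Regulatory subunits inhibit the catalytic ones until cyclic AMP binds. Prkar1a, the type I alpha subunit (chr11:109649405-109669656, plus strand), was at 48.7 (WT 1), 48.2 (WT 2), 50.9 (KO 1) and 46.4 FPKM (KO 2). The WT values lay between the KO values, and the difference was 0.005 (SE 0.10) with an interval from -0.24 to 0.25. Prkar2a, the type II alpha subunit (chr9:108689314-108750436, plus strand), was at 32.8 and 34.0 FPKM (WT) against 29.0 and 32.1 FPKM (KO). Its KO libraries were the lower ones, but the gap between KO 2 and WT 1 was smaller than the spread of the KO libraries (-0.13, SE 0.10, interval -0.38 to 0.12). Prkar2b, the type II beta subunit (chr12:31958476-32061296, minus strand), was listed at 0 in WT 1 and WT 2 and stood at 0.0208 and 0.0233 FPKM in KO 1 and KO 2, levels too low to compare.

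The makeup of the kinase transcripts was summed within each library. Prkaca and Prkacb together were at 36.0 and 34.6 FPKM (WT) against 35.2 and 31.1 FPKM (KO). The regulatory genes together were at 81.5 and 82.1 FPKM (WT) against 79.9 and 78.5 FPKM (KO), each KO sum under each WT sum. Regulatory transcripts thus exceeded catalytic ones in every library, by a ratio of 2.27 and 2.38 in WT and 2.27 and 2.52 in KO, and the ratios of the genotypes overlapped. Prkaca gave 51.8% and 45.4% of the catalytic sum in WT and 55.8% and 52.3% in KO, each KO share above each WT share. Neither the sums nor the shares were tested. Prkar1a gave 59.7% and 58.7% of the regulatory sum in WT, and 63.7% and 59.1% in KO. Of the other kinase genes listed, the PKA-related catalytic gene Prkx was at 11.4 to 13.8 FPKM (0.10, SE 0.12) and the inhibitor gene Pkig at 5.52 to 8.45 FPKM (-0.21, SE 0.19), and both overlapped between genotypes.

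**Figure D2:**
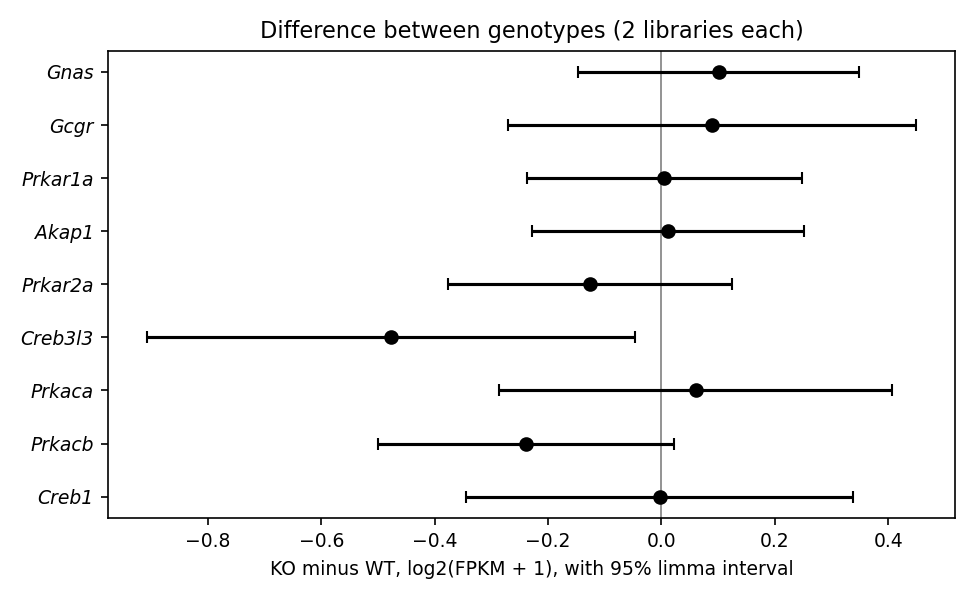
KO minus WT on the log2(FPKM + 1) scale for 9 pathway genes, as points with 95% limma intervals (2 libraries per genotype). The interval of Creb3l3, from -0.91 to -0.05, is the only one drawn that does not reach 0; its p did not pass after adjustment over all genes.

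Akap1 encodes an anchoring protein that holds PKA at the outer mitochondrial membrane (chr11:88830792-88864586, minus strand). It was at 39.3 FPKM in both WT libraries, 38.0 in KO 1 and 41.3 in KO 2. The WT values lay inside the KO range, with a difference of 0.01 (SE 0.10, interval -0.23 to 0.25). Of 15 other tested genes with anchoring products, 3 had both KO libraries above WT and 5 had both below, against 18.3% and 19.8% of all tested genes, with a median difference of -0.08. Msn and Ezr, which code for the membrane-cytoskeleton linkers moesin and ezrin, had the largest positive values. Msn was at 9.67 and 9.46 FPKM (WT) against 19.6 and 12.9 FPKM (KO) (0.68, SE 0.20), and its difference was 0.39 without KO 1. Ezr was at 2.99 and 3.19 FPKM (WT) against 5.23 and 3.99 FPKM (KO) (0.45, SE 0.17), and 0.29 without KO 1. The endothelial and stellate cell marker sums peaked in KO 1 too, at 93.8 and 31.1 FPKM, and the macrophage marker sums were above WT in both KO libraries. The part of these cells in the Msn and Ezr values was not tested. Akap2 was at 22.2 and 22.1 FPKM (WT) against 14.7 and 19.4 FPKM (KO) (-0.37, SE 0.15; -0.18 without KO 1). Rdx, the radixin gene, was at 50.7 and 49.6 FPKM (WT) against 48.2 and 47.4 FPKM (KO), a difference of -0.07 (SE 0.09, interval -0.29 to 0.16). Rdx was named outside the rule for named genes, with its values known.

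Cyclic AMP also acts without PKA, through the EPAC exchange factors, which switch on Rap proteins. Rapgef4, the EPAC2 gene, was at 22.8 and 32.5 FPKM (WT) against 8.56 and 14.9 FPKM (KO). Each KO value was under each WT value, and the KO mean was 0.423 of the WT mean. The difference was -1.20 (SE 0.27, interval -1.87 to -0.52), the largest in size among the lists upstream of the target genes, with an unadjusted limma p of 0.00488 and an adjusted p of 0.519. It lay between -0.83 (without KO 1) and -1.56 (without KO 2) with 1 library left out. Antisense genes overlap Rapgef4, and the strand setting of the quantification is not given in the sources used here, which leaves its level uncertain. The same limit holds for other named genes with an opposite-strand overlap, among them Gcgr, Prkacb, Prkar2a, Akap1, Adcy6, Hnf4a and Insig2. Akap2 is overlapped by Pakap on its own strand. Rap1a had both KO libraries above WT (14.3 and 12.9 against 15.6 and 16.6 FPKM; 0.23, SE 0.11), and Rap2a overlapped (-0.23, SE 0.16).

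Creb1 encodes CREB, the factor that PKA phosphorylates (chr1:64532645-64604548, plus strand). It was at 6.65 (WT 1), 6.43 (WT 2), 7.20 (KO 1) and 5.91 FPKM (KO 2). The WT values again lay between the KO values, and the difference was -0.003 (SE 0.14, interval -0.34 to 0.34). All 15 listed CREB relatives, coactivators and salt-inducible kinases were tested, and 0 passed over all genes. In 5 both KO libraries were above WT (Atf1, Creb5, Crebbp, Crtc1 and Crtc3) and in 6 both were below. Thus 11 of 15 stood apart, split over both directions, against 38.1% of all tested genes in either direction. The list was chosen with earlier results of these data known, so this share is no independent observation. Creb5 was at 8.39 and 11.4 FPKM (WT) against 12.2 and 15.3 FPKM (KO) (0.44, SE 0.18), but 0.24 without WT 1. Sik1, a cyclic AMP-induced kinase that keeps CRTC proteins out of the nucleus, was at 27.1 and 22.4 FPKM (WT) against 19.6 and 17.0 FPKM (KO) (-0.41, SE 0.13; unadjusted limma p 0.0231). Crebrf was at 6.14 and 7.37 FPKM (WT) against 5.27 and 4.85 FPKM (KO) (-0.35, SE 0.14).

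Creb3l3 encodes CREBH, a liver factor that sits in the endoplasmic reticulum until it is cut in the Golgi, and that acts in fasting and lipid metabolism (chr10:81084324-81098874, minus strand). It was at 27.3 (WT 1), 35.4 (WT 2), 19.4 (KO 1) and 25.1 FPKM (KO 2). Each KO value was under each WT value, though KO 2 came close to WT 1. The KO mean was 0.709 of the WT mean, and the difference was -0.48 (SE 0.18, interval -0.91 to -0.05). Its unadjusted limma p was 0.0349, and its adjusted p was 0.652. Without KO 1, and equally without WT 2, the difference was -0.30, and it was -0.66 without WT 1 and without KO 2. KO 1, the lowest library, also had the highest endothelial and stellate cell marker sums. The macrophage marker sums were above WT in both KO libraries; the part of either was not tested.

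Other genes of the membrane-bound CREB3 family and of its transport and cleavage were mixed, with 6 of 9 tested higher and 3 lower. Insig2, an endoplasmic reticulum retention protein gene, was at 255 and 347 FPKM (WT) against 153 and 207 FPKM (KO) (-0.74, SE 0.21). Its order of libraries was that of Creb3l3: WT 2, WT 1, KO 2 and KO 1 from highest to lowest. Other listed genes had this order too, among them Rapgef4 and Pck1, and its share over all genes was not counted. Creb3l2 was at 17.3 and 16.2 FPKM (WT) against 13.3 and 12.7 FPKM (KO) (-0.34, SE 0.11). Atf6, a stress factor released by the same proteases, went the other way, at 29.7 and 32.5 FPKM (WT) against 35.8 and 42.6 FPKM (KO) (0.32, SE 0.12).

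Genes reported as CREB3L3 targets were split. Of 16 tested, 10 were lower and 6 higher, with a median of -0.09, and 0 passed over all genes. Ppara, the fatty acid receptor gene of fasting, was at 21.4 and 28.0 FPKM (WT) against 15.2 and 16.4 FPKM (KO) (-0.60, SE 0.15). The desaturase genes Fads1 (0.71, SE 0.19) and Fads2 (0.996, SE 0.14) were higher in both KO libraries. Cidec, a lipid droplet gene, overlapped between genotypes (-0.37, SE 0.34) and was at 0.111 without WT 1. Apoa4, an apolipoprotein gene picked after its values were seen, was at 863 and 755 FPKM (WT) against 543 and 1222 FPKM (KO), so the KO libraries lay on either side of WT. The median of the list was -0.29 without KO 2.

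**Figure D3:**
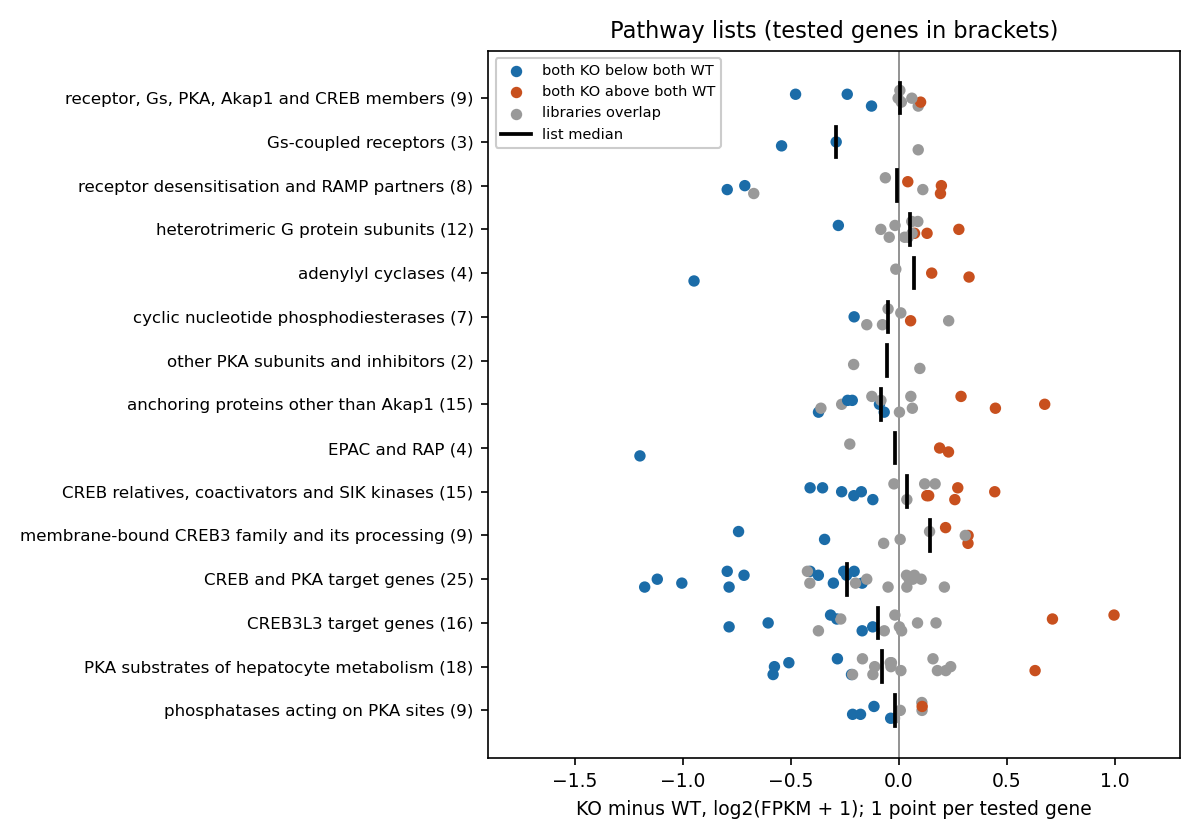
KO minus WT on the log2(FPKM + 1) scale for every tested gene of 15 lists, 1 point per gene, with the list median as a black bar; blue and orange points are genes whose KO libraries both lay below or above WT. The 9 members have a median of 0.005 and the CREB and PKA target genes a median of -0.24, with 0 points in any list past an adjusted p of 0.05.

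Most tested target genes of CREB and PKA had lower values in KO. Of 31 listed genes 25 were tested, with 18 lower and 7 higher and a median difference of -0.24, against 50.3% lower and a median of -0.001 over all tested genes. Both KO libraries lay below WT for 13 and above WT for 0, against 19.8% and 18.3% of all genes. At an unadjusted limma p under 0.05 there were 8 of 25, all lower, against 7.29% of all tested genes in either direction. After adjustment over all genes 0 passed. That 8 was 4 without WT 2, and the number of lower genes was 18 to 20 with any 1 library left out. The median was -0.37 without KO 2. The list was chosen with earlier results of these data known, so its shares describe the list and are no independent observation. Some of its genes, among them Sik1, Pde4b and Rgs2, are also in the lists of regulators. The difference between this list and the regulators was not tested. The macrophage marker sums were higher in both KO libraries, at 436 and 504 FPKM against 384 and 380 FPKM in WT, and their part in the values of the target genes was not tested.

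Pck1, the cytosolic enzyme that commits carbon to glucose, was at 15.7 and 16.9 FPKM (WT) against 6.38 and 6.94 FPKM (KO). The 2 genotypes were far apart compared with their spread, and Pck1 had the lowest p of any target gene (-1.18, SE 0.12; unadjusted limma p 5.60e-05, adjusted p 0.239). G6pc, which releases glucose from its phosphate, had a mean of 2.77 FPKM over the WT libraries and stood at 0.608 (KO 1) and 1.15 FPKM (KO 2), each under either WT value (-1.004, SE 0.25). Sds, the serine dehydratase gene, was at 4.69 and 7.89 FPKM (WT) against 2.65 and 1.94 FPKM (KO) (-1.12, SE 0.25). Pdk4, which codes for a kinase that closes pyruvate dehydrogenase, was at 5.32 and 9.33 FPKM (WT) against 3.60 and 3.78 FPKM (KO), a difference of -0.79 that was -0.43 without WT 2. These genes, with Rgs2, led the list and all had their KO libraries below WT.

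Genes that cyclic AMP induces rapidly were found among those with both KO libraries below WT and among those that overlapped. Sik1 (-0.41), Pde4b (-0.21), Rgs2 (-0.79) and Per1 had both KO libraries below WT, while Nr4a1, Crem, Dusp1 and Fos overlapped between genotypes. Nr4a1, an immediate early nuclear receptor gene, was at 2.64 and 2.99 FPKM (WT) against 2.93 and 2.95 FPKM (KO) (0.05, SE 0.15). Crem, which codes for a cyclic AMP-induced repressor, was at 10.9 and 11.6 FPKM (WT) against 11.1 and 12.1 FPKM (KO) (0.04, SE 0.11). Dusp1, a phosphatase gene, was at 55.7 and 63.2 FPKM (WT) against 72.6 and 53.7 FPKM (KO) (0.07, SE 0.16), and Fos differed by -0.41 (SE 0.24) with overlapping libraries. Per1, a clock gene with a cyclic AMP response, had both KO libraries below WT, at 12.8 and 15.9 against 11.5 and 12.4 FPKM (-0.24, SE 0.14). Nr4a1, Crem, Dusp1, Fos and Per1 were picked from the list after their values were seen. Ppargc1a, the coactivator gene of gluconeogenesis, lay under the testing limit at 0.482 and 0.648 FPKM (WT) against 0.432 and 0.453 FPKM (KO).

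**Figure D4:**
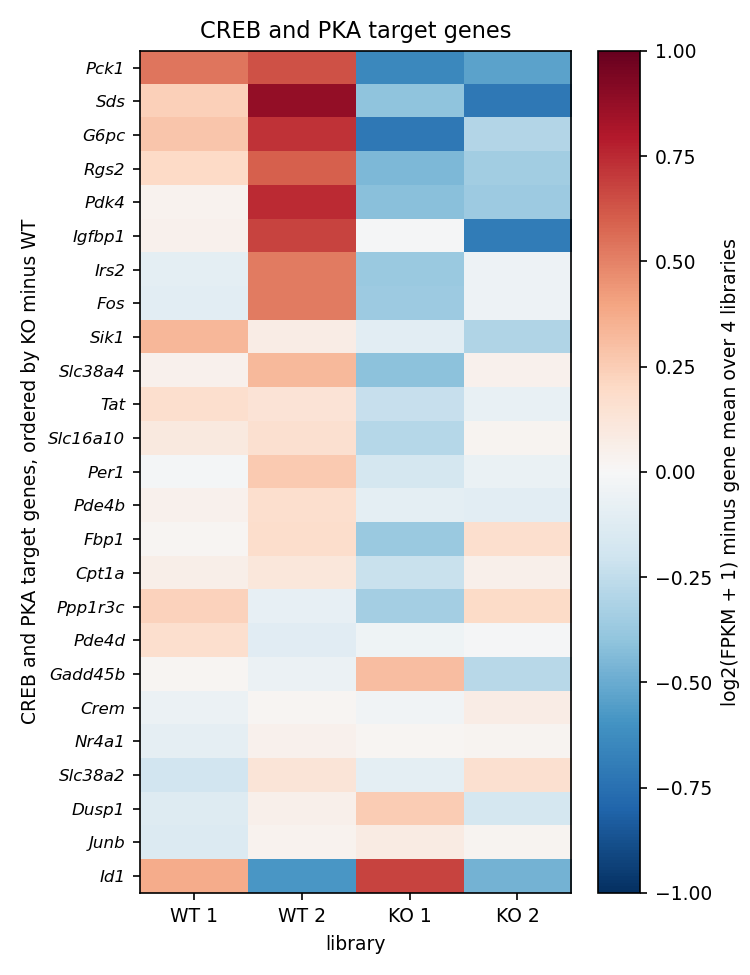
Colour gives log2(FPKM + 1) minus the gene's mean over the 4 libraries for the 25 tested CREB and PKA target genes (rows) in WT 1, WT 2, KO 1 and KO 2 (columns). The top 5 rows, Pck1 to Pdk4, are red or pale in WT and blue in KO, with the deepest red in WT 2, while Irs2 and Fos are pale blue in WT 1, and the rows of Nr4a1 and Crem are pale throughout while Gadd45b, Dusp1 and Id1, also in the lower rows, are red in KO 1 and blue in KO 2.

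CREB binds the cyclic AMP response element, whose full palindrome TGACGTCA holds the core element TGACG on either strand. Both were searched, on both strands, in the 250 bases upstream of each start in the RefSeq promoter table (GRCm38.p6, the assembly called mm10). The full element was in 1.55% of the 32851 promoters and the core element in 17.8%, full ones included. All 10 members had an entry: Prkar1a held a full element, and Gnas, Prkaca, Prkacb and Creb3l3 held a core element. Of the 31 target genes 27 had an entry, 1 with a full element (Dusp1) and 15 with a core element. These are counts of genes with the element in any of their promoters, and some genes have several. Counted that way, 3.17% of the 8296 tested genes with an entry held a full element and 31.2% a core element. The following stretches, 5′ to 3′ on the gene's strand with the element in capitals, show the letters in genes that were lower in KO, in genes that were not, and in the catalytic subunit genes. None of them overlaps an annotated exon.

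Pck1 (chr2:173152963-173153007, plus strand): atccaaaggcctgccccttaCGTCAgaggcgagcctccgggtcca

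Rgs2 (chr1:144004310-144004354, minus strand): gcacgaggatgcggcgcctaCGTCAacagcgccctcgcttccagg

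Per1 (chr11:69100000-69100044, plus strand): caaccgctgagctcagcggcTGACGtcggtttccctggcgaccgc

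Nr4a1 (chr15:101266786-101266830, plus strand): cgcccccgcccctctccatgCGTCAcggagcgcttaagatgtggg

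Dusp1 (chr17:26508588-26508635, minus strand): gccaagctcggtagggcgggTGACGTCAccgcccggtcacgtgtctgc

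Prkaca (chr8:83972838-83972882, plus strand): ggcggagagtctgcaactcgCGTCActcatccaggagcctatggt

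Prkacb (chr3:146813024-146813068, minus strand): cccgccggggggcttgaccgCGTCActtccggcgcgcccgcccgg

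Genes with the element were found among those lower in KO and among those that overlapped between genotypes. Pck1 (-1.18), with a core element whose first base is 90 bases before the start, and Rgs2 (-0.79) stood lower in KO. Nr4a1 (0.05), with core elements as near as 40 bases, and Dusp1 (0.07), with the full one at 143 bases, overlapped between genotypes. Of the tested target genes with a promoter entry, 6 of 10 with a core element and 10 of 11 without one had a lower value in KO. Prkaca (0.06) and Prkacb (-0.24) both held a core element. Over all tested genes with an entry, the 263 with a full element had a median difference of -0.006 and the 8033 without one a median of -0.002. Among those 263 genes, 24.0% had both KO libraries below WT and 13.3% above, against 20.1% and 18.5% of the genes without the element; this was not tested. A match in these letters is a description of the window, not a bound site.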

How the data were processed

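RNA was sequenced from 4 libraries (a strand-specific kit, per the labels). The authors deposited 1 value per gene and library, read here as FPKM from the tools in the submitters' processing notes (STAR 2.5.0, Cufflinks, Cuffdiff 2.2.1, mm10; no role or order given) and from values that are not whole; the header names no unit. Low values in genes with 1 transcript put depth at roughly 15100000 to 17500000 fragments (30.2 to 35.0 for a 2 kb transcript at 1 FPKM); this is an estimate with an assumed fragment length of 200 bases, and only 30.3% to 34.4% of those values fell within 0.1 of a whole fragment. Identifiers were matched to GENCODE M21 (22061 of 22079).

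Genes whose mean reached 1 FPKM were compared together by limma 3.58.1 in R 4.3.3 on log2(FPKM + 1), with an intensity trend, genotype as the only term and Benjamini-Hochberg adjustment, two-sided; a gene was called under an adjusted p of 0.05. The scale understates changes of low genes. The smallest two-sided p of an exact permutation test is 0.333 here. The fit was checked on data with known answers. The members and gene lists were chosen with earlier results of these data known. All members are named, with up to 3 tested genes of each list by size of difference (up to 5 for target lists); others named are marked in the text or illustrate a count. Some genes that this rule names are not reported here. Nothing says that the replicates came from separate animals beyond their being called biological, so p-values measure the spread between these libraries. Alternatives were the pseudocount, the filter, the scaling, the trend, the replicate number as a block, and each library left out. An exact 0 can be a failed estimate.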

Additional observations from a re-analysis of the deposited data

How the results depend on the processing

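With the pseudocount at 0.1, no filter, a filter at 5 FPKM, median-ratio scaling, no intensity trend or the replicate block, limma called 0 genes; with 1 library left out it called 0 to 8 (8 without WT 1, 5 without KO 1), and 0 members and 0 pathway genes in every one of these settings. The count at an unadjusted p under 0.05 was 759, and 318 (without WT 2) to 1227 (without KO 2) with a library left out. The replicate block gave 1054; the labels do not say that equal numbers mark a shared animal or day, and the deviations of WT 1 and KO 1 correlated at 0.151 across genes. The 1 member at an unadjusted p under 0.05, Creb3l3, became 0 without a filter and 0 without the trend, and was 0 or 1 with a library left out.

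Of 496 values of 53 named genes under these settings, 484 kept their direction and side of the threshold and 12 changed sign, all in genes whose libraries overlapped between genotypes. With 1 library left out, Gcgr ran from -0.096 to 0.275, Prkaca from -0.067 to 0.188, Prkar1a from -0.06 to 0.07, Akap1 from -0.046 to 0.069, Creb1 from -0.127 to 0.12 (0.002 with median-ratio scaling), Pde2a from -0.546 to 0.25, Pkig from -0.476 to 0.058 and Cidec from -0.855 to 0.111. The cause was not tested. With 1 library in an arm, that library is assumed to vary like the others. At this depth Prkar2b could not be compared.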

Other observations

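Genes for enzymes and other proteins that PKA phosphorylates in hepatocytes had a median difference of -0.08 over 18 tested genes, 12 lower and 6 higher. In 12 of the 18 the genotypes overlapped, in 5 both KO libraries were below WT and in 1 both were above, against 19.8% and 18.3% of all tested genes. Pklr, the liver pyruvate kinase that PKA inactivates, was at 69.7 and 80.4 FPKM (WT) against 110 and 123 FPKM (KO) (0.63, SE 0.12; unadjusted limma p 0.00187, adjusted p 0.487). Hnf4a, a hepatocyte transcription factor, was at 90.4 and 95.8 FPKM (WT) against 64.9 and 59.5 FPKM (KO) (-0.58, SE 0.10; unadjusted limma p 0.00134, adjusted p 0.470). Plin5, a lipid droplet protein gene, was at 5.13 and 6.61 FPKM (WT) against 2.95 and 4.27 FPKM (KO) (-0.58, SE 0.20). These 3 had the largest differences of the list and are among the 6 without overlap, and none passed over all tested genes.

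Phosphatase genes that act on PKA sites lay close to 0, with a median of -0.02. Of 9 tested, 8 differed by less than 0.2, as did 72.3% of all tested genes. In 4 of the 9 both KO libraries were below WT and in 1 both were above, against 19.8% and 18.3% of all tested genes. Ppp1cb, a catalytic subunit of protein phosphatase 1, was at 28.4 and 34.4 FPKM (WT) against 25.6 and 28.1 FPKM (KO) (-0.21, SE 0.13). Ppp2r1b differed by -0.18 (SE 0.12) and Ppp2ca by -0.11 (SE 0.11). Rapgef3, the EPAC1 gene, lay under the testing limit at 0.340 and 0.154 FPKM (WT) against 0.582 and 0.987 FPKM (KO), where Rapgef4 lay lower in both KO libraries.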
